A study of Mus musculus with 6 samples.

Results

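EGR and NR4A genes encode nuclear factors that record a recent receptor signal, and NAB genes encode proteins that hold EGR factors back. The 8 genes described here (Egr1, Egr2, Egr3, Nr4a1, Nr4a2, Nr4a3, Nab1 and Nab2) were chosen by name, with earlier results of these data known, from 26332 genes in a table of RNA-seq counts, and all 8 had a row in it. The libraries came from double negative 3 (DN3) thymocytes of C57BL/6 mice, 4 wild type (WT 1 to 4) and 2 with a knockout of Tcf7 (KO 1 and KO 2), each library from 1 mouse. Tcf7 encodes TCF-1, a DNA-binding factor of early T-cell development. WT 1, 2 and 3 and KO 2 came from females, and WT 4 and KO 1 from males. Cells were sorted from thymus as CD25 positive and negative for CD44, CD3, TCRbeta, CD8, NK1.1 and CD1d tetramer. The labels do not give the ages of the mice or the knockout allele.

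EGR proteins are zinc finger transcription factors whose genes are switched on within minutes by the RAS-ERK pathway, acting through serum response factor. NAB1 and NAB2 have no DNA-binding domain of their own: they dock on EGR proteins and hold back EGR-driven transcription, and NAB2 is itself induced by EGR factors, which closes a feedback loop. NR4A proteins are orphan nuclear receptors that act without a known natural ligand, so their activity follows their abundance. In thymocytes the EGR genes respond to the pre-T-cell receptor at the passage out of DN3 and to the T-cell receptor later, and Nr4a1 (Nur77) is widely used as a read-out of receptor signal strength.

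Of the 8 genes, 3 differed between genotypes by edgeR's quasi-likelihood test with sex in the model, at a Benjamini-Hochberg adjusted p under 0.05 over all genes tested. Egr1 and Nr4a2 fell in KO and Nab2 rose. Of all 13294 genes tested, 30.7% were called, 14.1% higher and 16.5% lower in KO, so the share of the 8 genes called is near the background and is no result about the group. That background moved with the libraries, from 1665 genes called without WT 1, when 0 of the 8 were called, to 9473 without KO 2, when 3 were. With limma-voom weights per genotype, an alternative fit, none of the 8 was called, beside 11.3% of all genes. All 8 passed the filter on low counts. Both KO libraries exceeded every WT library for Nr4a1 and Nab2, as for 22.9% of all genes tested, and fell short of every WT library for Egr1 and Nr4a2, as for 28.6%. Together that is 4 of the 8 genes, beside 51.5% of all. The median log2 difference was -0.15 over the 8 genes and -0.04 over all genes.

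Total counts were 23711513 to 41666797 in WT and 19589938 and 13673860 in KO 1 and KO 2. Levels are in CPM, counts scaled to library size, after TMM scaling. Tcf7 ranged from 2094 to 2326 CPM in WT, against 1133 and 1022 CPM for the KO pair, and since the deleted part of the gene is not given, this drop is only a partial check of the labels. The summed level of 10 DN3 markers was 12965 to 13820 CPM in WT and 8860 and 9617 CPM in KO, with none at 0 in WT; 5 of the 10 fell and none rose. The KO libraries differed from each other more than WT libraries did: chi-square per degree of freedom over genes was 104.1 against 3.37 to 5.105 among WT 1 to 3. WT 4, the male WT library, differed from these 3 by 15.89 to 23.05. KO 2 also held B-cell transcripts (Cd79a at 40.4 CPM and Ms4a1 at 36.0 CPM), which did not exceed 0.211 CPM in any WT library, while KO 1 had 3.68 CPM of the former and none of the latter. Over all 9 B-cell markers the sum was 236 to 264 CPM in WT, where Ighm and Cd79b made up most of it and Ms4a1 and Pax5 were at 0, and 544 and 1082 CPM in KO. The 5 markers of double-positive and CD8 T cells summed to 7.17 to 20.2 CPM in WT and to 228 and 1800 CPM in KO. The part of these transcripts in the results below was not tested. In bulk libraries such as these, fewer expressing cells and less RNA per cell cannot be told apart.

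Per kilobase of the deposited gene length, Egr1 was the most abundant of the 8 genes in WT and Nr4a1 the most abundant in KO. In RPKM, which divides CPM by gene length in kilobases, the WT means were 21.2 ± 4.97 (SD, n = 4) for Egr1, 13.1 ± 0.489 for Nab1, 12.9 ± 3.28 for Nr4a1 and 5.24 ± 0.345 for Nab2. The other genes followed far below, with Nr4a2 at 1.3 ± 0.147, Egr2 at 0.904 ± 0.217, Nr4a3 at 0.853 ± 0.256 and Egr3 at 0.647 ± 0.214. Nab1 and Nr4a1 overlapped in their WT ranges, as did each neighbouring pair from Nr4a2 down to Egr3. In KO the order of mean RPKM was Nr4a1 (23.5), Nab1 (12.8), Egr1 (11.5), Nab2 (8.73), Nr4a3 (1.18), Egr2 (0.615), Egr3 (0.548) and Nr4a2 (0.100). There the ranges of Nab1 and Egr1, of Nr4a3 and Egr2, and of Egr2 and Egr3 overlapped. Thus 4 genes made up nearly all of this programme at DN3 in both genotypes, and Nr4a2, which led the low group in WT, was last in KO. The deposited lengths of Egr3 (1416 bases) and Nr4a3 (1884 bases) cover less than the 4406 and 5987 exonic bases of GENCODE M21, so their place in the order rests on the part of each gene that was counted. The 2 lengths also differ for Egr1 (3072 deposited, 4484 GENCODE), Nr4a1 (2477 and 3509) and Nab1 (5088 and 4100). In mean CPM Nab1 stood above Egr1 in WT (66.7 against 65.3) and above Nr4a1 in KO (65.4 against 58.2). Which gene came first thus rests on the deposited lengths.

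**Figure D1:**
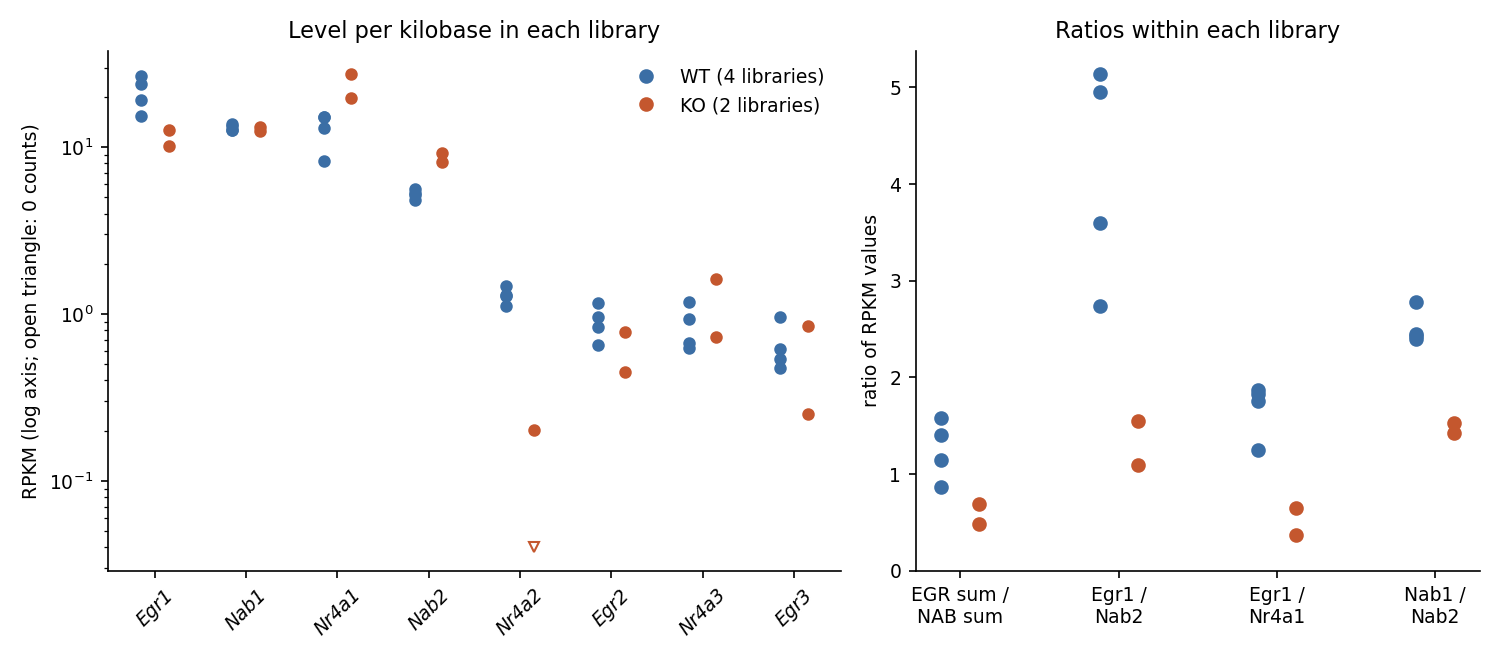
Left, RPKM of each gene in each library on a log axis, with WT in blue (4 libraries) and KO in orange (2 libraries), where an open triangle marks 0 counts. Right, ratios of RPKM values within each library on a linear axis from 0, where KO lies below WT in all 4 ratios: EGR sum over NAB sum, for example, is 0.864 to 1.58 in WT and 0.485 and 0.693 in KO.

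Egr1 (Entrez 13653), the broadly expressed founding member of the EGR family, fell in KO. It measured 73.0, 82.0, 58.7 and 47.4 CPM across WT 1 to 4, against 31.3 CPM for KO 1 and 39.1 CPM for KO 2. Both KO libraries lay below the lowest WT library, WT 4, and the WT values spread over a wide range (65.3 ± 15.3, SD, n = 4). The fitted change was a 1.69-fold fall (log2 -0.76, SE 0.17, adjusted p = 0.0254). The call was lost without WT 1, WT 2, WT 4, KO 1 or KO 2 (in that order, adjusted p = 0.0840, 0.0559, 0.153, 0.159 and 0.291) and in the limma-voom fit (adjusted p = 0.667). Over 12 alternatives the adjusted p ran from 0.000589 to 0.667, and the direction was a fall in each.

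Egr2 and Egr3, which act downstream of the pre-T-cell receptor and later in tolerance, were at low levels in both genotypes and did not pass the test. Egr2 (Entrez 13654, chromosome 10, 67534469 to 67542188) gave 103, 83, 74 and 55 counts across the WT libraries, against 26 for KO 1 and 31 for KO 2, or 1.93 to 3.47 CPM in WT and 1.33 and 2.31 CPM in KO. KO 2 lay within the WT range and KO 1 below it. Its log2 difference was -0.42, with a 95% interval of -1.16 to 0.33 (adjusted p = 0.330). Egr3 (Entrez 13655, chromosome 14, 70077317 to 70082613) had 16 to 56 counts in WT and 7 and 16 in KO. In CPM it ranged from 0.668 to 1.35 in WT, with KO 1 lower at 0.358 and KO 2 inside that range at 1.19. Its log2 difference of -0.24 had a 95% interval of -1.70 to 1.22 (adjusted p = 0.783), and it turned to 0.30 without WT 4 and 0.32 without KO 1. Egr1 made up 94.2 to 95.2% of EGR counts in WT and 94.9% and 91.8% in KO, so the summed EGR signal was that of Egr1.

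**Figure D2:**
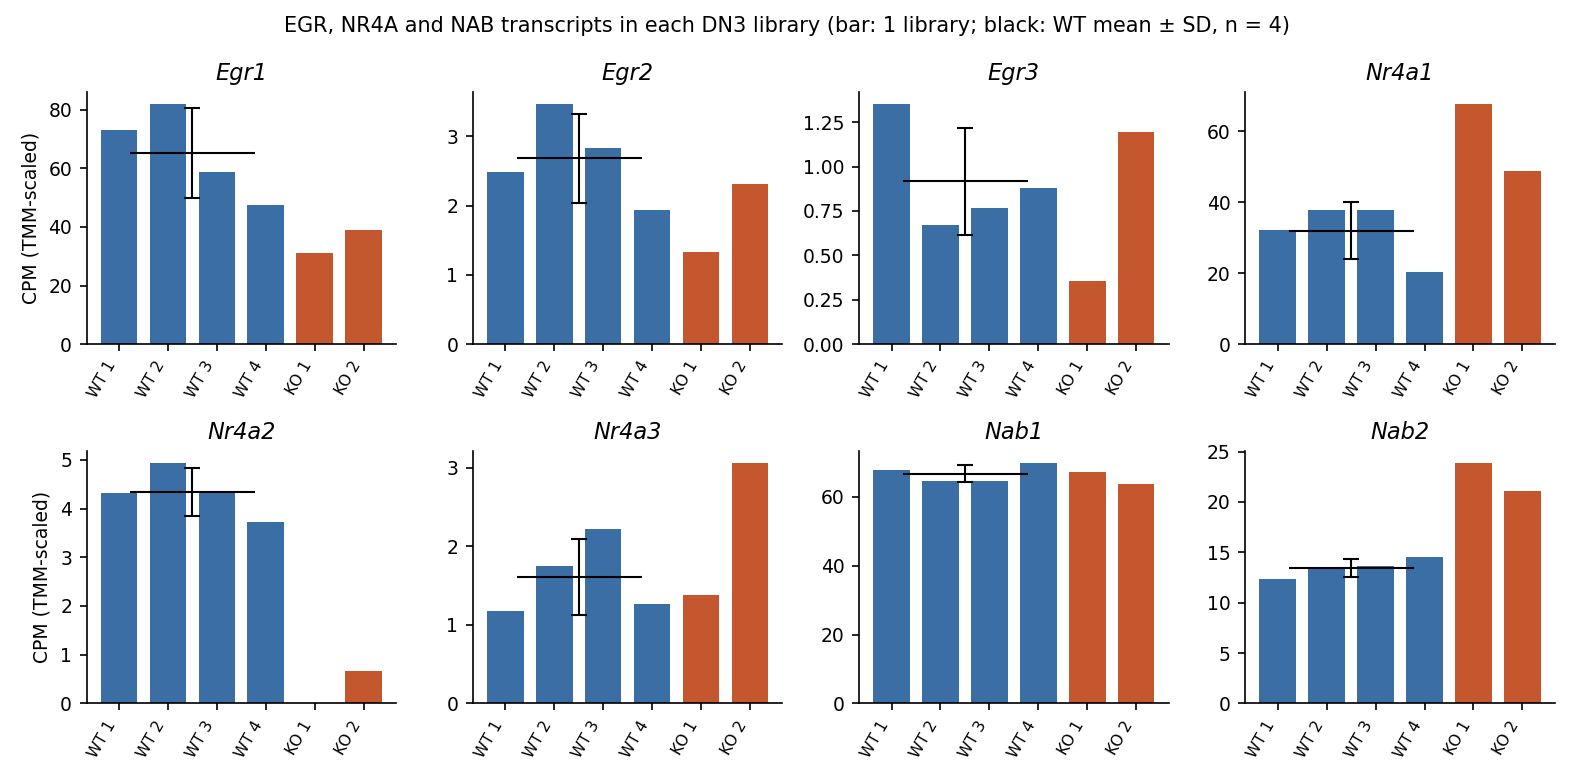
CPM of each of the 8 genes in each library (1 bar per library, axes from 0, WT blue and KO orange), with the WT mean and SD (n = 4) in black. Both KO bars stand below every WT bar for Egr1 and Nr4a2 and above every WT bar for Nr4a1 and Nab2, while Nab1 stays between 63.7 and 69.7 CPM in all 6.

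The 3 NR4A genes differed among themselves. Nr4a2 (Nurr1; Entrez 18227, chromosome 2, 57106830 to 57124003) fell nearly to nothing in KO. The WT libraries gave 179, 118, 114 and 106 counts, or 4.32, 4.93, 4.37 and 3.72 CPM, against 0 counts for KO 1 and 9 counts, 0.672 CPM, for KO 2. The groups were far apart and the WT libraries close together. By pooled counts the level was 15.8-fold higher in WT (exact 95% interval 8.25 to 34.7), an interval that covers counting error only. KO 1 alone was at least 28.2-fold below the WT mean, taking 3 counts (0.154 CPM) as the limit that a count of 0 allows, and KO 2 was 6.46-fold below it. The fitted log2 change was -3.79 (SE 0.88, adjusted p = 0.0289, 1.75e-10 to 0.212 over 12 alternatives). Dropping WT 1, WT 2 or WT 3 ended the call (in that order, adjusted p = 0.0971, 0.0989 and 0.0932), as did the limma-voom fit (adjusted p = 0.212). The fitted value was -2.74 without WT 4, -2.73 without KO 1 and -9.70 without KO 2, the last of which compares against no count at all and is no measure of size.

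Nr4a1 (Nur77; Entrez 15370, chromosome 15, 101253902 to 101274795) was higher in both KO libraries than in any WT library but did not pass the adjusted test. Its CPM read 32.1, 37.7, 37.7 and 20.5 from WT 1 through WT 4, then 67.6 for KO 1 and 48.8 for KO 2. WT 4 was the lowest library and KO 1 the highest, and these are the males. The fitted difference was 1.97-fold (log2 0.98, SE 0.30, adjusted p = 0.0609, up to 0.207 over 12 alternatives). The log2 value was 0.46 without WT 4 and 0.47 without KO 1, both of which set KO 2 against WT 1 to 3. Without KO 2 it was 1.71, which sets KO 1 against WT 4. Nr4a1 passed in these fits, but so did most genes tested. There the lone library of a genotype or sex is assumed to vary like the others. Nr4a1 also passed by DESeq2 (adjusted p = 0.00499), which called 5261 genes in all. Within males Nr4a1 was 3.31 times as high in KO 1 as in WT 4, and within females 1.36 times as high in KO 2 as in the mean of WT 1 to 3.

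Nr4a3 (Nor1; Entrez 18124, chromosome 4, 48045078 to 48086447) was a minor member in these cells and did not pass. Counts were 36 to 58 per WT library, 27 for KO 1 and 41 for KO 2. On the CPM scale that is 1.18, 1.75, 2.22 and 1.27 from WT 1 through WT 4, then 1.38 for KO 1 and 3.06 for KO 2. KO 1 lay within the WT range and KO 2 above it. The log2 difference was 0.57, with a 95% interval of -0.43 to 1.56 (adjusted p = 0.322). It passed without WT 4 (0.87) and without KO 1 (0.88), both of which set KO 2 against WT 1 to 3. Most genes tested also passed in these fits. As a share of all NR4A counts, Nr4a1 was 80.4 to 85.4% in WT and 98.0% and 92.9% in KO, and Nr4a2 was 9.87 to 14.6% in WT and 0% and 1.28% in KO. The NR4A transcripts in KO were thus those of Nr4a1 almost alone.

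The start sites of the NR4A genes carried the same short element. In the RefSeq promoter table of GRCm38.p6 (the mm10 assembly of the counts), 6 of the 8 genes had a window around a start site, 10 windows in all. Egr1 and Egr3 had no window and were not searched. The cyclic AMP response element half-site, TGACG on either strand, occurred at 4 places in the window of each NR4A gene, whereas 20.8% of all 32851 windows held it at 1 place or more and 0.231% at 4 or more. Windows of Nab1 and Egr2 held it at 1 or 2 places. This element was picked out after its matches were seen, among 7 searched. CREB-family factors, which calcium and cyclic AMP signals activate, bind it. The start sites used for Nr4a1 (chr15:101266846) and Nr4a3 (chr4:48045305) lie inside the span of each gene. Of the upstream bases in the Nr4a3 window, 152 are in annotated Nr4a3 exons, against 0 for Nr4a1 and Nr4a2. Shown 5′ to 3′, with the half-sites in capitals, is the sequence upstream of this Nr4a1 start (chr15:101266596-101266845, plus strand). The sequence upstream of the Nr4a2 start follows (chr2:57124004-57124253, minus strand). Last is the pair of half-sites nearest each other before this Nr4a3 start (chr4:48045088-48045117, plus strand), within the gene. The part of this element in the levels of the NR4A genes was not tested.
Nr4a1: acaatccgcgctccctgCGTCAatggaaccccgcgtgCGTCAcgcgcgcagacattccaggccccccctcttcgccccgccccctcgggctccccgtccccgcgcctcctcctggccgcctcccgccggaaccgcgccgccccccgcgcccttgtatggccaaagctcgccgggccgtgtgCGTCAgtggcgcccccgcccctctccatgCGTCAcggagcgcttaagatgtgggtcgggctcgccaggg
Nr4a2: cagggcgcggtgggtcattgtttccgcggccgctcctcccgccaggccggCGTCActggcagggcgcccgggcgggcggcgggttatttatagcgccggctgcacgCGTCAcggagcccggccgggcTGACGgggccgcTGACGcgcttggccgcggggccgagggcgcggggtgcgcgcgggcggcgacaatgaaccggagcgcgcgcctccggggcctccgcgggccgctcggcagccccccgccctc
Nr4a3: atgtCGTCAcatTGACGtctcgcattccag

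The CArG box, to which serum response factor binds, was among the other elements searched on both strands. It was found in windows of Egr2 and of no other of these 6 genes, which do not include Egr1 or Egr3. It lay in 4 of the 5 Egr2 windows, 3 of which overlap and share 1 copy, beside 1.63% of all windows. Both copies are shown in capitals (chr10:67537484-67537513 and chr10:67537787-67537816, plus strand), as the element through which ERK signals reach EGR genes. The EGR site itself (GCGGGGGCG or GCGTGGGCG, in 3.47% of all windows) occurred at 3 places in the Nab1 window and at 1 place in the Nr4a1 window. Of the 3, 1 is shown (chr1:52500538-52500567, minus strand). In that Nab1 window 231 upstream bases are in annotated Nab1 exons. None of the 10 windows held the TCF/LEF site (CTTTGAA or CTTTGAT, in 8.65% of all windows), the AP-1 site (TGACTCA or TGAGTCA, in 5.2%), the NR4A monomer site (AAAGGTCA, in 1.51%) or the full cyclic AMP element (TGACGTCA, in 1.79%). These matches describe letters in short windows and show no binding.
Egr2, upstream copy: cggatcttctCCTTTTTTGGaaagtctcgg
Egr2, downstream copy: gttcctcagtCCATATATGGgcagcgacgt
Nab1: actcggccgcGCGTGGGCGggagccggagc

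Nab2 rose in KO while Nab1 did not pass the test. Nab2 (Entrez 17937, chromosome 10, 127660918 to 127666703), the inducible corepressor, read 12.4, 13.4, 13.7 and 14.5 CPM from WT 1 through WT 4, then 23.8 CPM for KO 1 and 21.1 CPM for KO 2. Both KO libraries were well above every WT library, and the WT values were tight (13.5 ± 0.889, SD, n = 4). The rise was 1.62-fold (log2 0.70, SE 0.12, adjusted p = 0.0107, 9.69e-06 to 0.318 over 12 alternatives). It was 1.64-fold within males and 1.61-fold within females. The fitted value kept between 0.69 and 0.72 when any 1 library was left out, but the adjusted p was 0.0540, 0.0553 and 0.0508 without WT 1, WT 2 and WT 3, just past the threshold, and 0.208 in the limma-voom fit.

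Nab1 (Entrez 17936, chromosome 1, 52455849 to 52500712), the constitutively expressed corepressor, read 67.9, 64.7, 64.7 and 69.7 CPM from WT 1 through WT 4, then 67.1 CPM for KO 1 and 63.7 CPM for KO 2. KO 1 lay within the WT range and KO 2 just under it. Its log2 difference was -0.05, and the 95% interval of -0.23 to 0.13 was the narrowest of the 8 genes (adjusted p = 0.620). The libraries carry no strand mark, so reads from exons that Nab2 shares with opposite-strand genes cannot be assigned. GENCODE M21 gives 40 exonic bases shared with Stat6, 151 with Nemp1 and 1050 with Gm16229, out of 2941. Stat6 (161 to 165 CPM in WT, against 123 and 161 for the KO pair) and Nemp1 (44.7 to 57.0 CPM in WT, against 66.3 and 64.7) did not pass the test, with adjusted p of 0.250 and 0.0520. Gm16229 has no row in the counts used here, so its part in the rise of Nab2 was not tested.

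With Egr1 lower and Nab2 higher, the balance of EGR to NAB transcripts was lower in KO. Summed RPKM of the 3 EGR genes over that of both NAB genes was 1.41, 1.58, 1.14 and 0.864 from WT 1 through WT 4, then 0.485 for KO 1 and 0.693 for KO 2. Egr1 over Nab2 was 2.74 to 5.14 in WT and 1.10 and 1.55 in KO. Egr1 over Nr4a1, which are both read as markers of receptor signalling, was 1.26 to 1.87 in WT and 0.373 and 0.646 in KO, so these markers did not move together. Nab1 over Nab2 was 2.39 to 2.78 in WT and 1.42 and 1.53 in KO. In each of the 4 ratios the KO libraries were below all WT libraries. These are descriptions built from genes already reported, with sizes that rest on the deposited gene lengths, and carry no test.

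**Figure D3:**
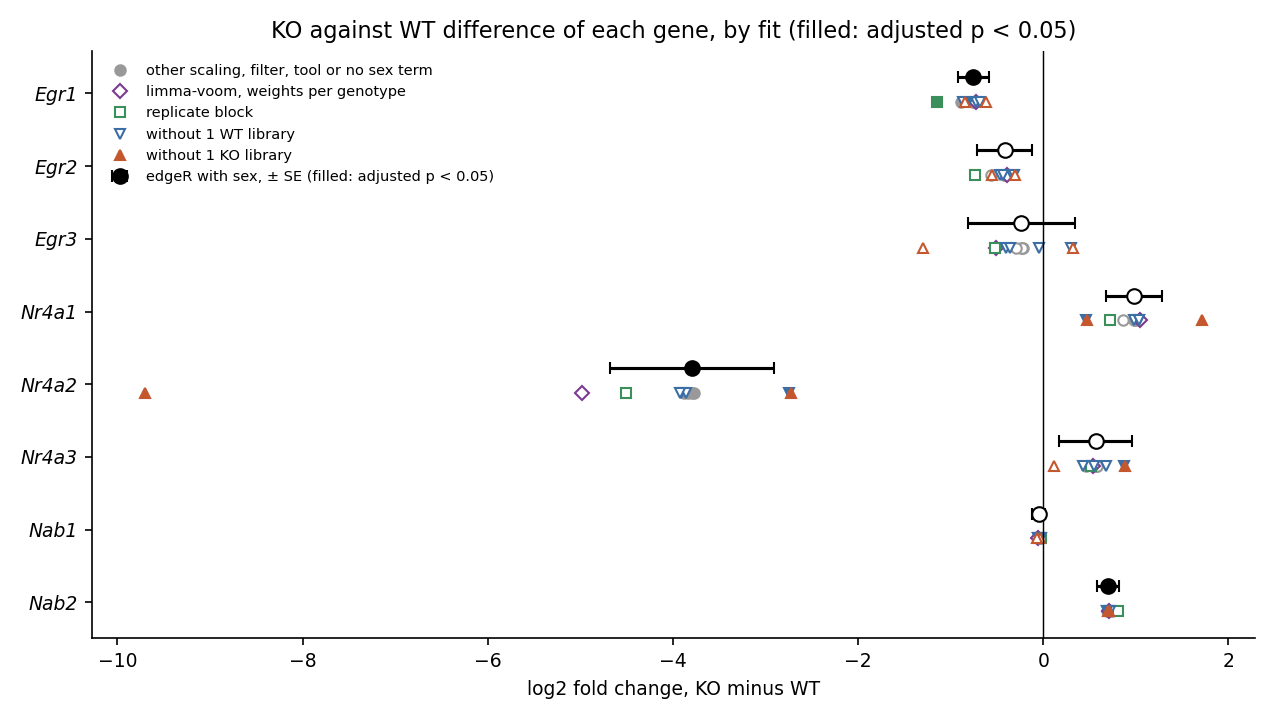
Log2 fold change of each gene, KO minus WT, in the edgeR fit with sex (black, ± SE) and in 12 alternatives (coloured symbols below it), filled where the adjusted p is under 0.05. The Nab2 and Nab1 values stay within a narrow span, the Nr4a2 values run from -9.70 to -2.73, and Egr3 values fall on both sides of 0.

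The genes of the surrounding pathway were taken from 5 lists by role. Of the 4 further family members and NAB partners, 3 were tested, 1 rose and 1 fell, beside 14.1% and 16.5% of all genes tested. With 3 genes the count is no result about the list. Egr4, the fourth EGR gene, was at 1.16 CPM ± 0.147 in WT and had no count in KO, at least 12.8-fold lower by pooled counts against 3 counts over the KO group (adjusted p = 0.00805). Chd4, a chromatin remodeller that NAB proteins recruit, rose 1.24-fold (adjusted p = 0.0217). Its relative Chd3, at 339 CPM ± 20.6 in WT, was far lower in KO 1 (56.3 CPM) and higher in KO 2 (461 CPM), and did not pass (adjusted p = 0.576), and Wt1, which shares the EGR-type zinc fingers, had no count in any library. Without WT 1, WT 2 or WT 3, 1 gene of this list was called, beside 1665 to 1743 genes over the whole table. With limma-voom none was, beside 11.3% of all genes.

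In the list of the RAS-ERK to serum response factor route, 3 of 17 tested genes rose and 1 fell, near the 14.1% and 16.5% of all genes tested, so the count is no result about the route. The median log2 difference was 0.09, against -0.04 over all genes. Rasgrp1, the RAS activator of thymocytes, rose 2.90-fold, from 187 CPM ± 10.4 to 544 and 527 CPM (adjusted p = 0.000319). Elk3, a partner of serum response factor, fell 1.35-fold (adjusted p = 0.0130). Mrtfa, a coactivator of serum response factor, also rose (adjusted p = 0.0220), with KO 1 within the WT range. Srf itself ranged from 118 to 129 CPM in WT, against 114 and 126 CPM for the KO pair, and did not pass (adjusted p = 0.693). Mrtfa and Srf were picked with their values in view. These counts moved by over 1.5 times with the library left out, as did those over the whole table. Without WT 1, 2 or 3, 2 genes of the list were called, beside 1665 to 1743 genes over the whole table. More were called without WT 4, KO 1 or KO 2, where most genes tested were called.

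In the calcium, NFAT and MEF2 list, which holds the inputs of NR4A genes, 4 of 17 rose and 1 fell, with a median of 0.07. Beside 30.7% of all genes called in either direction, this count too is no result about the list. Camk4, a calcium-dependent kinase that activates CREB, rose from 69.7 CPM ± 12.8 to 371 and 661 CPM (8.10-fold, adjusted p = 0.000113). Ppp3ca, a catalytic subunit of calcineurin, rose 2.71-fold (adjusted p = 0.00954). Prkd2, a kinase that phosphorylates class IIa histone deacetylases, rose 2.34-fold (adjusted p = 0.000391), and Hdac7, the deacetylase that represses Nr4a1 in thymocytes, rose 1.63-fold (adjusted p = 0.00519). The fall was that of Cabin1, an inhibitor of calcineurin and MEF2 (1.18-fold, adjusted p = 0.0390; picked with its values in view). The number called moved with the library left out, as it did over the whole table. Without WT 1, 2 or 3 it was 4, all higher in KO, beside 1665 to 1743 genes over the whole table. It was larger without WT 4, KO 1 or KO 2, where most genes tested were called. Most of the called genes of the list were higher in KO without WT 4 and without KO 1. Most were lower in KO 1 without KO 2.

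Of 25 tested genes described as targets or partners of EGR and NR4A factors, 15 rose and 4 fell, beside 14.1% and 16.5% of all genes, with a median log2 difference of 1.03 against -0.04. Il2rb, the beta chain of interleukin receptors, was 29.8-fold higher (adjusted p = 0.000298), and Cd5, a damper of receptor signals, 9.34-fold higher (adjusted p = 0.000113). Tox2 rose from 4.14 CPM ± 0.816 to 73.9 and 20.5 CPM (adjusted p = 0.00727). Id3, through which EGR factors act at the exit from DN3, rose to 190 and 227 CPM from 27.5 to 38.4 CPM in WT, while Egr1 fell. Id3 and the other genes of this list named from here on were picked with their values in view. The falls included the cell cycle inhibitor Cdkn1a (78.9 CPM to 22.6 and 12.4), the stress-response gene Ndrg1 (2.98-fold) and the ubiquitin ligase Cblb (2.28-fold). Among the retinoid X receptor partners of NR4A1 and NR4A2, Rxra rose 3.16-fold (adjusted p = 0.0198), Rxrg fell from 15 to 43 counts per WT library to 0 (adjusted p = 0.0108) and Rxrb did not pass (adjusted p = 0.0550).

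Of 43 tested genes of the other rapid-response and feedback list, 17 fell and 11 rose, beside 16.5% and 14.1% of all genes, with a median of -0.62. Fosb fell from 37.6 CPM ± 5.94 to 2 counts in KO, a ratio of 617 (exact 95% interval 171 to 5097), and Klf4 from 8.28 ± 1.64 to 5 counts, a ratio of 54.0 (23.1 to 167). Jun fell from 353 CPM ± 153 to 2.92 and 13.96 CPM (adjusted p = 0.00920). Against these, Klf2 rose 78.5-fold, to 194 and 239 CPM. Egr1 and Nr4a2 thus fell alongside Fosb, Jun and Klf4, and by less in the case of Egr1, while Nr4a1 did not fall. WT 4 had the highest WT levels of Jun (576 CPM) and Fosb (46.4 CPM) but the lowest WT levels of Egr1, Egr2, Nr4a1 and Nr4a2. The mitochondrial share of counts, 2.61 to 2.92% in WT, was 0.893% in KO 1 and 1.78% in KO 2, and its part in these falls was not tested. Without WT 1, 2 or 3, 16 genes of this list were called (5 higher, 11 lower), beside 1665 to 1743 genes over the whole table. With limma-voom 9 were higher and 9 lower, beside 11.3% of all genes, so the excess of falls was not kept in that fit.

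**Figure D4:**
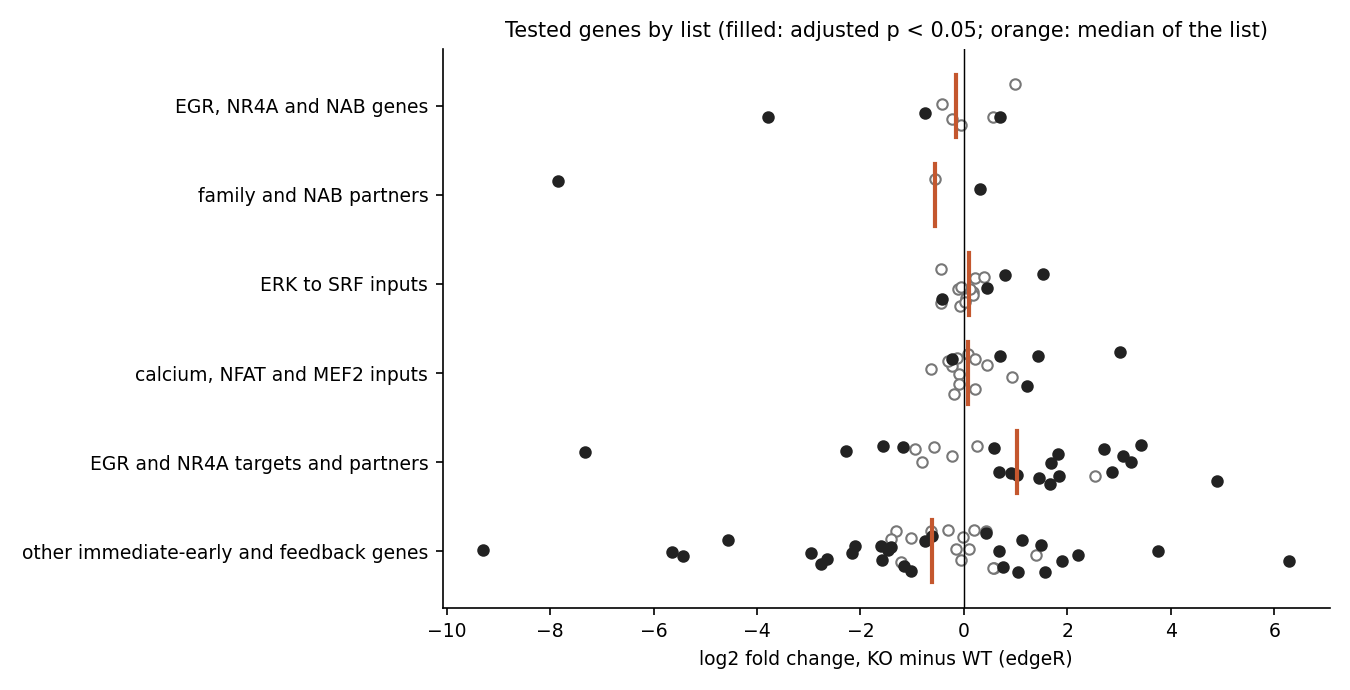
Log2 fold change (KO minus WT, edgeR) of every tested gene by list, 1 point a gene, filled where the adjusted p is under 0.05, with the median of each list as an orange bar. The points farthest left are genes with few or no KO counts, whose fitted values are no measure of size. The medians are -0.15 for the EGR, NR4A and NAB genes, 1.03 for the target and partner genes and -0.62 for the other immediate-early genes.

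To place the 4 members with at least 5 CPM in the higher group among all genes, the genes with the most similar pattern were sought among 10447 others. The measure was the root mean square difference over the 6 libraries of log2 CPM, centred on the mean of each gene. Centring removes the level, so a gene at a far higher or lower level can be near. The nearest to Nr4a1 were Ccnb1 (0.086) and Hmmr (0.13), a cyclin and a spindle protein of mitosis. Ccnb1 read 32.5, 36.4, 36.8 and 21.7 CPM from WT 1 through WT 4, then 72.2 CPM for KO 1 and 43.8 CPM for KO 2, close to the values of Nr4a1 in every library, the dip in WT 4 included. The nearest to Nab2 were Kif21b (0.040) and Slc25a25 (0.043), and the nearest to Nab1 were Numa1 and Max (both 0.016). The nearest to Egr1 lay farther off, Ssx2ip at 0.16 and Gtpbp8 at 0.17. With 6 libraries such matches are a description only.

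**Figure D5:**
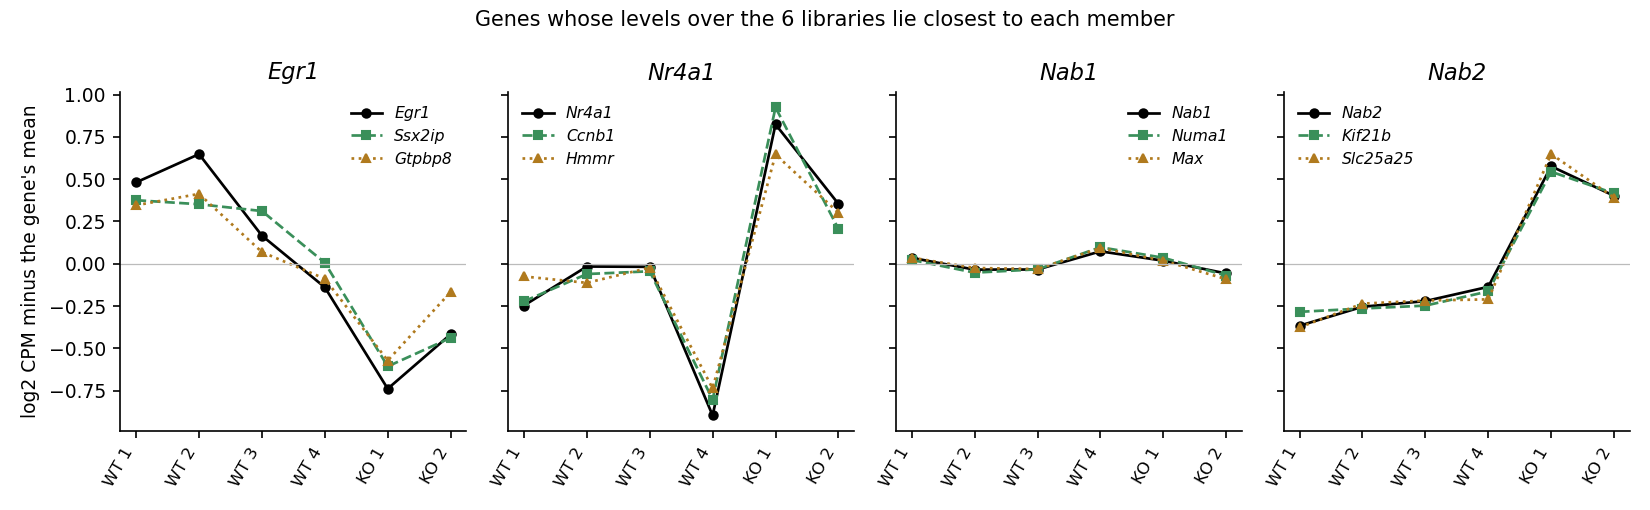
Log2 CPM minus the mean of each gene over the 6 libraries for Egr1, Nr4a1, Nab1 and Nab2 (black) and the 2 genes nearest to each (green and ochre, both dashed or dotted), with lines joining points only for reading. The Nr4a1, Ccnb1 and Hmmr lines dip together in WT 4 and peak together in KO 1, while Nab1 and its neighbours stay flat.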

How the data were processed

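The authors deposited raw counts per Entrez gene, 1 column a library, made with featureCounts on mm10, per the submitters' processing notes (the sources used here name no aligner, version or strand setting). RNA was amplified with SMART-Seq v4, which does not mark strand. The 6 single-library tables held the same values as the table of the series, and gene lengths are the deposited ones. Symbols came from RefSeq (GRCm38.p6) by Entrez identifier, which named 25275 of 26332 genes. Genes were compared in edgeR 4.0.16, run in R 4.3.3, on these counts: filterByExpr with a minimum count of 10 (13294 genes kept), TMM scaling, and the robust quasi-likelihood F-test of KO against WT with sex as an additive term (3 residual degrees of freedom), adjusted by Benjamini-Hochberg over all genes kept and called under 0.05. All 6 libraries entered the fit. The SE is the log2 fold change over the square root of F, and 95% intervals are unadjusted. A second model added a genotype by sex term. Exact intervals and the limit for a count of 0 (3 counts) cover counting error only, since amplified reads lack molecular identifiers. 3 counts equal 0.0720 to 0.219 CPM by total counts. The fits were also run on simulated counts, whose outcome is not reported here and lends the results no support. Alternatives were DESeq2 size factors, no filter, DESeq2 1.42.0, limma-voom (limma 3.58.1) with weights per genotype, no sex term, a replicate block, and leaving out each library. The genes and lists (164 entries, 1 unmatched) and the tests were chosen with earlier results of these data known. All 8 members are named. From a list, the text names up to 4 called genes with the largest change, at least 5 CPM in the higher group and both KO libraries outside the WT range, all genes of a list of 5 or fewer, and the 2 genes nearest to each member with at least 5 CPM; other names are marked as chosen later. Some genes that this rule names are not reported here.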

Additional observations from a re-analysis of the deposited data

Results flagged for a closer look

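The genotype by sex term of the second edgeR model passed for 2 of the 8 genes, a lower share than the 54.7% of all 13294 genes it called. The term sets single libraries against each other (1 male WT, 1 male KO and 1 female KO), and its spread comes from the 3 female WT libraries alone, which differed less than the KO libraries did, so its p-values compare these libraries and do not show a difference between sexes. For Nr4a1 the KO difference was larger in the male pair of libraries, with a log2 term of 1.27 (SE 0.14 and adjusted p = 3.61e-09). For Nr4a2 it was more negative in the male pair, with a term of -6.83 (SE 1.92, adjusted p = 0.00294), a size set by the count of 0 in KO 1. Sex and the single library cannot be told apart. The other 6 genes did not pass this test (adjusted p = 0.166 to 0.985). No WT library passed Dixon's gap test for any of the 8 genes. With 4 libraries the gap must exceed 0.829 of the range, so the test can miss a library that stands apart. The ratio was 0.693 for Egr3 in WT 1 and 0.677 for Nr4a1 in WT 4.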

How the results depend on the processing

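Over 12 alternatives to the fit, 72 of 96 values of the 8 genes kept their direction and their side of the threshold, 16 kept the direction but lost the call, 6 gained one and 2 turned. The turned values were those of Egr3, at 0.30 without WT 4 and 0.32 without KO 1. With limma-voom weights per genotype, which let KO libraries vary more, none of the 8 genes was called (0, against 3): Egr1 was -0.73, Nr4a2 -4.98 and Nab2 0.71. That fit called 1500 genes in all (987 higher, 513 lower, against 1878 and 2198), 0 among the further family members, 2 in the ERK list and 18 among other immediate-early genes. DESeq2 added Nr4a1 (1.00) and called 7 ERK genes, beside 5261 genes in all. Samples share only a replicate number. Deviations from the group means correlated at -0.110 for number 1 and 0.0328 for number 2. With KO 1 and KO 2 alone in their group, their deviations are exact opposites, so these values cannot decide whether the numbers pair samples. With the replicate block in place of sex (1 residual degree of freedom), Egr1 kept its call, while Nr4a2 (-4.51) and Nab2 (0.80) did not, and 748 genes were called, with 1 of the 8 members, 0 family members, 1 ERK, 3 calcium, 11 target and 12 immediate-early genes. Leaving out 1 library gave -0.86 to -0.61 for Egr1, -0.55 to -0.30 for Egr2, -1.30 to 0.32 for Egr3, 0.46 to 1.71 for Nr4a1, -9.70 to -2.73 for Nr4a2, 0.11 to 0.88 for Nr4a3 and 0.69 to 0.72 for Nab2. It gave 0 to 4 called members (0 without WT 1 and without WT 2, 1 without WT 3), 1665 to 9473 genes over the table, 1 to 3 family, 2 to 11 ERK, 4 to 13 calcium, 14 to 23 target and 16 to 39 immediate-early genes. The cause was not tested. CPM without TMM factors moved none of 16 group levels by as much as 1 SD. Egr2, Egr3 and Nr4a3 had under 104 counts in each library.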
